A study of Caenorhabditis elegans with 3 samples.

Results

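Clusters of crosslinked reads on the mitochondrial genome made up 232 of the 9293 entries in 5 deposited lists of DCR-1 contact sites, and were taken as every entry placed on the mitochondrial chromosome, on either strand. DCR-1, the Dicer of Caenorhabditis elegans, was mapped by PAR-CLIP, in which UV light links protein to RNA that has taken up 4-thiouridine (4SU) in the living animal, and linked uridines are read out as T-to-C conversions. All 3 libraries came from whole young adult worms of the FLAG:DCR-1 strain, a rescue strain that carries FLAG-tagged DCR-1, so no library without the tagged protein or without 4SU was analysed here. The T1/V1 group held 2 libraries (replicates 1 and 2, custom 3' adapter), made with RNase T1 and RNase V1, an enzyme that cuts base-paired RNA. The T1 group held 1 library (replicate 3, default 3' adapter), labelled with RNase T1 alone, although the study's general description mentions both nucleases. The libraries are called by their replicate numbers. The adapter changed with the nuclease, so the effects of these cannot be told apart. The labels do not say whether the libraries came from separate cultures, and the spread between replicates 1 and 2 may be technical.

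Replicate 1 had 22 mitochondrial clusters among 399, replicate 2 had 20 among 377, and replicate 3 had 23 among 1304. The consensus list, in which the authors pooled the libraries and kept clusters with reads from at least 2 of them, had 107 among 4705, and the conservative list, which also required conversions in at least 2 libraries, had 60 among 2508. The 60 conservative clusters are a subset of the 107. Conversions in 2 libraries did not suffice in every case. The minus-strand consensus cluster at positions 7887 to 7909 had them and was not in the conservative list. Reads and conversions are the authors' counts per cluster, positions are those of the authors' lists, and intervals are exact (Clopper-Pearson) 95% binomial intervals that cover counting error only. No genome sequence was used here, and no sequence is printed.

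The mitochondrial genome encodes a small set of respiratory chain and ATP synthase subunits, together with the ribosomal RNAs and transfer RNAs (tRNAs) used to translate them, and in C. elegans all of its genes lie on the same strand. Mitochondrial RNAs are cut from long precursors, in which tRNAs often sit between neighbouring genes, and mature tRNAs receive a CCA end that the genome does not encode. Dicer cuts double-stranded RNA and is known for releasing microRNAs (miRNAs) from hairpins and small interfering RNAs from longer duplexes outside mitochondria.

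The lists name 36 gene identifiers in the annotation of mitochondrial clusters, MTCE.1 to MTCE.36, which neither the lists nor the gene tables pair with names, so they are used as given. From the annotation attached to the clusters, 12 were coding and 24 noncoding, the same numbers as the 12 protein-coding genes and the 22 tRNA and 2 ribosomal RNA genes of the RefSeq mitochondrial genome (assembly WBcel235). Clusters reached MTCE.7 and MTCE.33 over at least 625 and 948 bases, longer than the longest RefSeq tRNA gene of 63 bases. These are called the long noncoding identifiers below, and the other 22 the short noncoding identifiers. The lists do not call the short ones tRNA. A cluster that spans several identifiers was counted for each of them, so the read counts of neighbouring identifiers are often those of the same cluster.

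Mitochondrial clusters were a larger share of both T1/V1 libraries than of the T1 library. The share was 5.51% of clusters (interval 3.49 to 8.23) in replicate 1 and 5.31% (3.27 to 8.07) in replicate 2, a mean of 5.41% ± 0.148 (SD, n = 2), and 1.76% (1.12 to 2.63) in replicate 3. In absolute number the 3 libraries were alike, with 20 to 23 clusters, while nuclear clusters numbered 377, 357 and 1281. Counted by reads the difference narrowed. Mitochondrial clusters held 549 of 7829 reads (7.01%) in replicate 1, 522 of 10834 (4.82%) in replicate 2, a mean of 5.92% ± 1.55 (SD, n = 2), and 960 of 24992 (3.84%) in replicate 3. The T1 value lay below both T1/V1 values, but by less than their SD from the nearer of them. In whole worms, fewer cells of a type and less RNA per cell cannot be told apart. With 2 libraries against 1, no test between the nucleases was made.

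In the libraries, the median mitochondrial cluster was longer and held more reads than the median over all nuclear clusters, but not longer or deeper than that of nuclear snoRNA clusters. Their median length was 59.5, 70.5 and 73 bases in replicate 1, replicate 2 and replicate 3, against 40, 45 and 51 bases for nuclear clusters. Their median was 14, 10 and 29 reads, against 7, 8 and 3 reads for nuclear clusters. Nuclear tRNA clusters had medians of 12, 16 and 27 reads and 39, 41.5 and 53 bases. Nuclear snoRNA clusters, on the small nucleolar RNAs, had 29.5, 50 and 47.5 reads and 73.5, 74 and 79.5 bases. Reads were concentrated at few sites, and the 5 largest clusters held 60.8%, 68.0% and 54.6% of the mitochondrial reads. The 5 largest of the 107 consensus clusters held 38.2%.

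Clusters that touched at least 1 short noncoding identifier held most of the mitochondrial reads in every library, though many also lay on coding identifiers. They held 439 of 549 reads (80.0%) in replicate 1, 443 of 522 (84.9%) in replicate 2 and 695 of 960 (72.4%) in replicate 3. Each library had clusters on 20 of the 22 short noncoding identifiers, and 19 were hit in all 3. Clusters on coding identifiers alone held 2.00%, 11.9% and 8.23% of the reads, and clusters on MTCE.7 or MTCE.33 alone held 17.5%, 3.26% and 19.4%. Among consensus reads the share on short noncoding identifiers was 48.9%, that on coding identifiers alone 25.7% and that on the long noncoding identifiers alone 11.95%. Of these 1870 short noncoding reads, 690 were in 3 clusters that also lay on MTCE.7 or MTCE.33, and 1180 in the others. Of the 1180, all but the 181 reads of the cluster at positions 9478 to 9591 were in clusters that also lay on coding identifiers. The 48.9% thus depends on counting clusters shared with long noncoding or coding identifiers as short noncoding. In replicates 1, 2 and 3, clusters shared with MTCE.7 or MTCE.33 held 41, 21 and 161 reads. The largest cluster of each library, over MTCE.13, MTCE.14 and MTCE.15, also lay on the coding identifier MTCE.16.

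**Figure D1:**
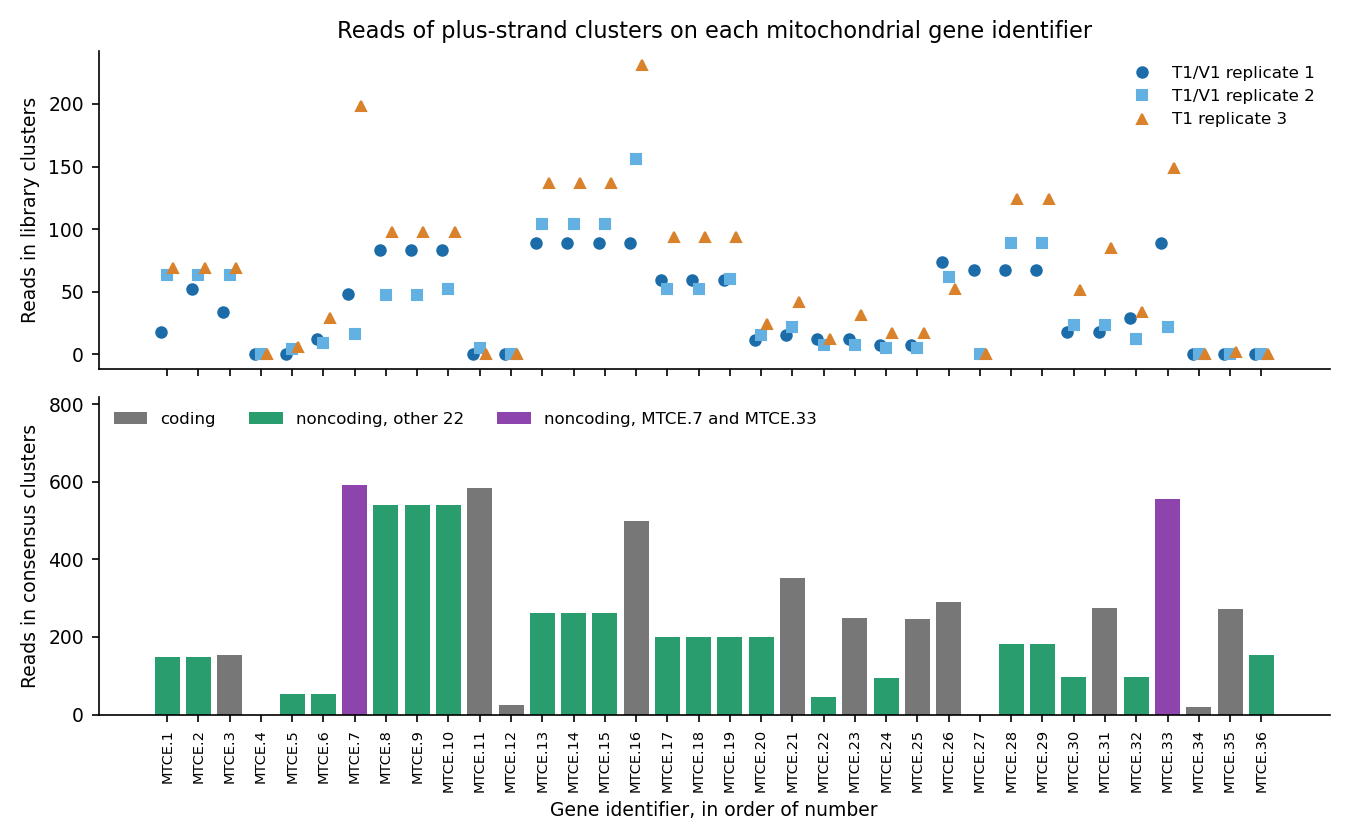
Reads of plus-strand clusters on each mitochondrial gene identifier, in order of number, for the 3 libraries (upper panel, 1 point per library) and the consensus list (lower panel, bars coloured by kind of identifier); a cluster over several identifiers is counted for each. MTCE.13 to MTCE.15 stand at 89, 104 and 137 reads in the libraries and at 262 in the consensus list, while MTCE.36 is at 0 in every library and at 154 in the consensus list.

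The cluster over MTCE.13, MTCE.14 and MTCE.15, which ended within the coding identifier MTCE.16, had the most reads in each library. It held 89 reads in replicate 1, 104 in replicate 2 and 137 in replicate 3, and 262 in the consensus list, where it lay at positions 3244 to 3420. The cluster over MTCE.28 and MTCE.29 followed in replicate 2 and replicate 3, with 89 and 124 reads, and had 67 in replicate 1. Its consensus cluster, at positions 9478 to 9591, had 181 reads. In replicate 1 alone the cluster there began at position 9423, and so also covered MTCE.27 and the end of the coding identifier MTCE.26. MTCE.27 had a cluster in no other list.

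The run from MTCE.17 to MTCE.20 lay between the coding identifiers MTCE.16 and MTCE.21. It held 70, 75 and 118 reads in replicate 1, replicate 2 and replicate 3, split among 2, 3 and 2 clusters, and 200 reads in the single consensus cluster at positions 4269 to 4506. The cluster on MTCE.20, at positions 4447 to 4506, had the same first and last base in all 3 libraries, with 11, 15 and 24 reads. MTCE.8, MTCE.9 and MTCE.10 shared a cluster of 83 reads in replicate 1, 47 in replicate 2 and 98 in replicate 3. In the consensus list they were merged with MTCE.7 and the start of MTCE.11 into the largest mitochondrial cluster, 815 bases at positions 951 to 1765 with 540 reads and 88 conversions.

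MTCE.1 and MTCE.2 lay at the beginning of the numbered genome, next to the coding identifier MTCE.3. The consensus cluster at positions 3 to 115 held 148 reads and 151 conversions, the most conversions of any mitochondrial cluster. The libraries had 52, 63 and 69 reads there, with 10, 25 and 43 conversions. The remaining short noncoding identifiers had smaller clusters. MTCE.30 had 18, 23 and 51 reads in replicate 1, replicate 2 and replicate 3. MTCE.32 had 29, 12 and 34, MTCE.6 had 12, 9 and 29, MTCE.22 had 12, 7 and 12, and MTCE.24 had 7, 5 and 17. These 5 had 98 reads or fewer in the consensus list. MTCE.5 had clusters of 4 reads in replicate 2 and 6 reads in replicate 3, at positions 785 to 816 and 785 to 819. These were the only library clusters on the mitochondrial genome that overlapped no consensus cluster on their own strand. The plus-strand consensus cluster that touched MTCE.5 began at position 823. A minus-strand consensus cluster of 19 reads lay opposite, at positions 811 to 952.

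The long noncoding identifiers were covered by several clusters each. MTCE.7 was touched by clusters of 48 reads in total in replicate 1, 16 in replicate 2 and 198 in replicate 3, of which 98 in replicate 3 belonged to the cluster shared with MTCE.8. MTCE.33 was touched by clusters of 89, 22 and 149 reads in the same order. In both cases replicate 2 was lowest and replicate 3 highest. Among consensus clusters, MTCE.33 carried the clusters at positions 10732 to 10952, with 196 reads, and at positions 10975 to 11355, with 261 reads.

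Among the 12 coding identifiers, 7 had a cluster in all 3 libraries, namely MTCE.3, MTCE.16, MTCE.21, MTCE.23, MTCE.25, MTCE.26 and MTCE.31. In replicates 1, 2 and 3, MTCE.16 had 89, 156 and 231 reads, MTCE.3 had 34, 63 and 69, and MTCE.26 had 74, 62 and 52. MTCE.31 had 18, 23 and 85, MTCE.21 had 15, 22 and 42, MTCE.23 had 12, 7 and 31, and MTCE.25 had 7, 5 and 17. Replicate 3, the library with the most reads, was highest for 6 of these 7. MTCE.26 held most of the reads that lay on coding identifiers alone. Its cluster at positions 8204 to 8281 had 42 reads in replicate 2, and the cluster at positions 8204 to 8263 had 48 reads in replicate 3. Replicate 1 had no cluster there. Its only cluster on MTCE.26 alone had 7 reads. MTCE.11 was hit in replicate 2 with 5 reads and MTCE.35 in replicate 3 with 2 reads. MTCE.12 and MTCE.34 had no library cluster and 24 and 20 reads in the consensus list, and MTCE.4, which the lists name only as lying near clusters on other identifiers, had no cluster of its own in any list.

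In the consensus list, clusters touched 11 of the 12 coding identifiers and 52 clusters lay on coding identifiers alone, with a median of 13 reads. The totals, which include clusters shared with neighbouring noncoding identifiers, were 583 reads on MTCE.11, 500 on MTCE.16, 353 on MTCE.21, 291 on MTCE.26, 275 on MTCE.31, 272 on MTCE.35, 248 on MTCE.23, 246 on MTCE.25 and 153 on MTCE.3. The largest cluster on a coding identifier alone lay on MTCE.26 at positions 8893 to 9411 and had 103 reads. Of the 583 reads on MTCE.11, 540 belonged to the cluster at positions 951 to 1765.

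In the libraries, each cluster annotated over a coding start codon also lay on a short noncoding identifier. There were 5 in replicate 1, 7 in replicate 2 and 6 in replicate 3, and the main conversion position, the position the authors list as the cluster's leading conversion site, lay within the last 3 bases of the cluster in 4, 5 and 4 of them. The coding identifiers concerned are each numbered directly after a short noncoding one. Of all mitochondrial clusters, 12 of 22, 14 of 20 and 12 of 23 lay on a short noncoding identifier. In the consensus list 7 of 8 such clusters lay on a short noncoding identifier, all but the one at positions 2576 to 2679, and the main conversion was within the last 3 bases in 3 of the 8. The conservative list had it there in 3 of 7. The cluster on MTCE.22 and the start of MTCE.23 ended at position 5680 with its main conversion at 5679 in all 3 libraries, with 12, 7 and 12 reads. The cluster on MTCE.24 and the start of MTCE.25 ran from position 6450 to 6508 in all 3 libraries, with its main conversion at 6507, 6506 and 6506. That on MTCE.20 and the start of MTCE.21 ended at 4506 with its main conversion at 4504 in all 3.

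Taken over all clusters on short noncoding identifiers, the main conversion lay within the last 3 bases of the cluster in 5 of 12 (41.7%, interval 15.2 to 72.3) in replicate 1, 8 of 14 (57.1%, 28.9 to 82.3) in replicate 2 and 5 of 12 (41.7%, 15.2 to 72.3) in replicate 3. These counts include the 4, 5 and 4 start codon clusters given above. For all nuclear clusters the shares were 18.3%, 10.1% and 8.59%. For nuclear tRNA clusters they were 26.9%, 19.2% and 23.96%, within the mitochondrial intervals in replicate 1 and replicate 3 and below the interval in replicate 2. The other mitochondrial clusters had 3 of 10, 1 of 6 and 4 of 11. In the consensus list the share was 3 of 11 (27.3%) on short noncoding identifiers and 18.9% for nuclear tRNA clusters. The part of an end not encoded in the genome, such as CCA, in these positions was not tested, since the lists hold no read sequences.

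**Figure D2:**
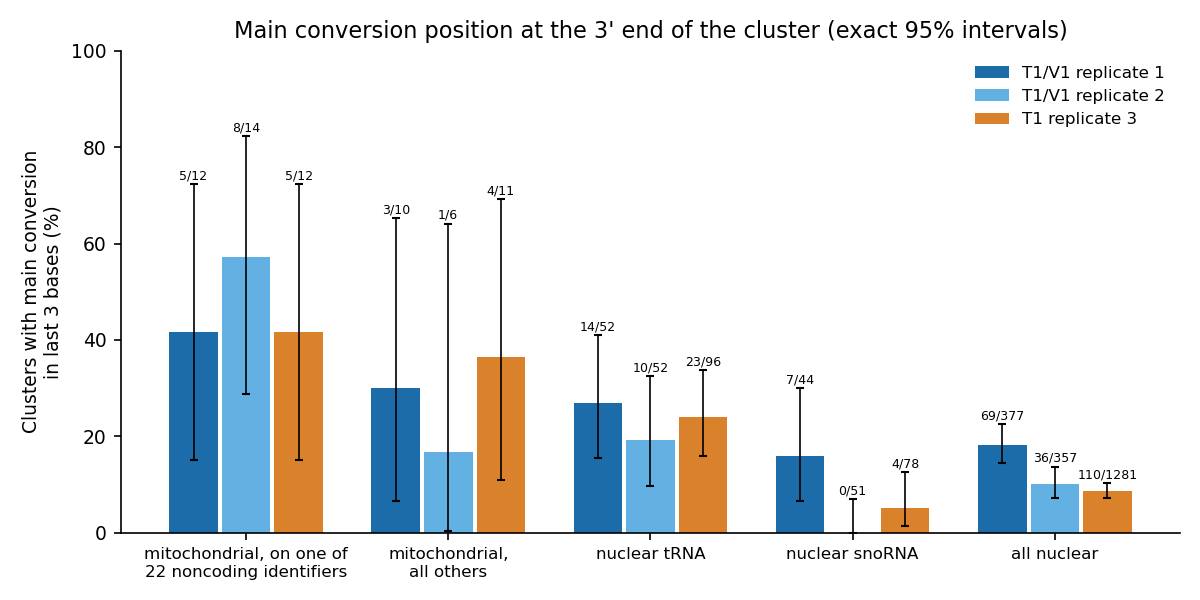
Percent of clusters whose main conversion position lay within the last 3 bases of the cluster, by class of cluster and library (bars, with the count over the number of clusters above; error bars are exact 95% binomial intervals). Clusters on short noncoding mitochondrial identifiers stand at 41.7%, 57.1% and 41.7%, and all nuclear clusters at 18.3%, 10.1% and 8.59%, with wide intervals for the mitochondrial classes.

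Mitochondrial clusters recurred between the libraries. Of the 22 in replicate 1, 15 overlapped a same-strand cluster of replicate 2 by 1 base or more (68.2%, interval 45.1 to 86.1), beside 44.1% of all clusters of that library, and 18 overlapped a cluster of replicate 3 (81.8%, 59.7 to 94.8), beside 60.7%. Of the 20 in replicate 2, 15 were found in replicate 1 (75%, 50.9 to 91.3), beside 47.5%, and 16 in replicate 3 (80%, 56.3 to 94.3), beside 63.1%. Of the 23 in replicate 3, 16 were found in replicate 1 (69.6%, 47.1 to 86.8), beside 17.6%, and 16 in replicate 2, beside 17.4%. In each direction the mitochondrial share was above the share over all clusters. The latter lay below the mitochondrial interval in 4 of the 6 directions, and within it when replicate 1 or replicate 2 was compared with replicate 3. In replicates 1, 2 and 3, clusters covered 12.2%, 10.97% and 16.7% of the 13789 plus-strand bases between the first and last mitochondrial consensus cluster. Overlap by chance, given this coverage and the greater median length of mitochondrial clusters, was not tested. The higher shares are therefore not a measure of reproducibility alone. Nuclear tRNA clusters recurred at 73.1% and 88.5% from replicate 1, 73.1% and 86.5% from replicate 2, and 46.9% and 45.8% from replicate 3.

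The gap was smaller among clusters of more reads. Among clusters of at least 10 reads, 13 of 14 mitochondrial clusters of replicate 1 were found in replicate 2 and 14 of 14 in replicate 3, against 79.2% and 88.3% of nuclear clusters. From replicate 2 the counts were 10 of 11 in both other libraries, against 73.9% and 92.1%. From replicate 3 they were 15 of 17 and 14 of 17, against 48.2% and 51.5%. Starting from replicate 3, the mitochondrial share stayed well above the nuclear one at this read minimum. The main conversion position was the same in all 3 libraries at 6 places (114, 898, 1704, 3308, 4504 and 5679). Among overlapping mitochondrial pairs it was the same in 7 of 16 between replicates 1 and 2 and in 8 of 19 between replicates 1 and 3 (43.8% and 42.1%), near the nuclear 40.2% and 41.3% and below the nuclear tRNA 65.8% and 47.8%. Between replicates 2 and 3 it was the same in 10 of 17 (58.8%), against 26.1% of nuclear and 37.8% of nuclear tRNA pairs.

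**Figure D3:**
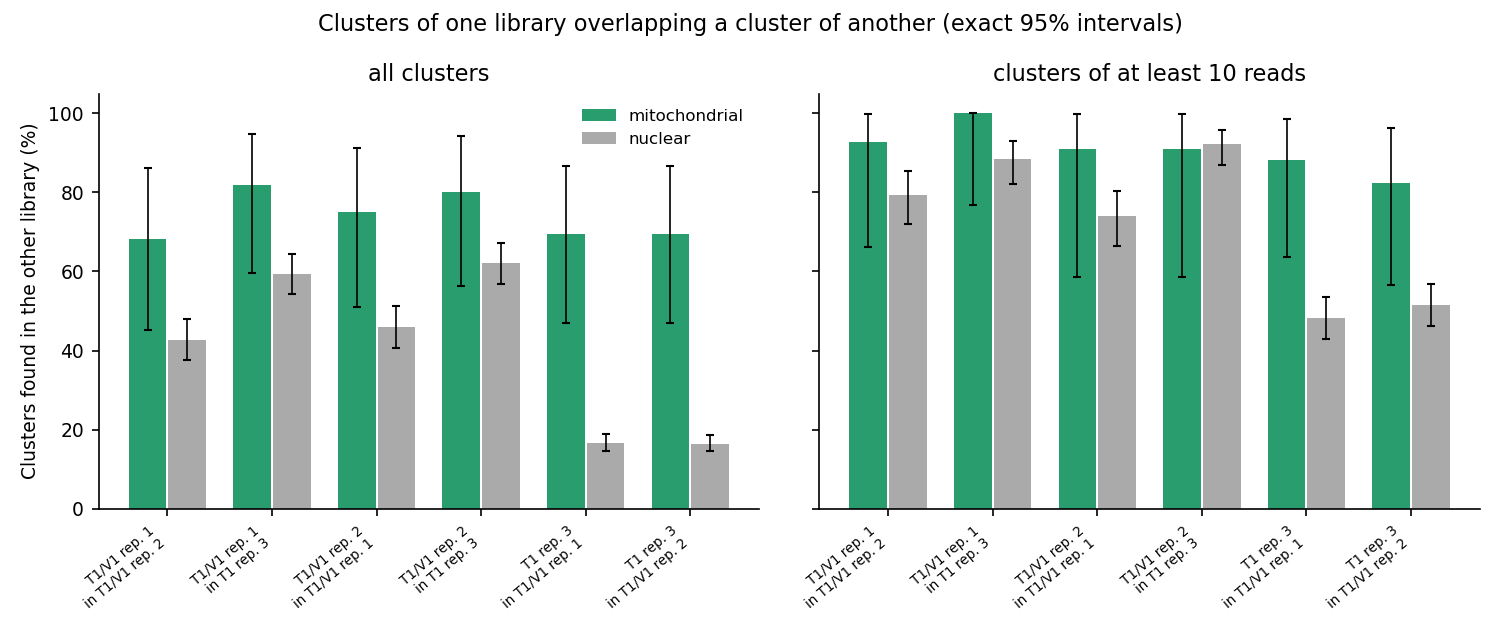
Percent of clusters of 1 library that overlap a cluster of another by at least 1 base on the same strand, for mitochondrial (green) and nuclear (grey) clusters, with exact 95% binomial intervals; left, all clusters, and right, those of at least 10 reads. The mitochondrial bars lie between 68.2% and 81.8% on the left, and the nuclear bars fall to 16.6% and 16.5% when replicate 3 is the first library.

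The minus strand, opposite to every annotated mitochondrial gene, was represented in the pooled lists only. All library clusters lay on the plus strand, 0 of 22, 0 of 20 and 0 of 23 on the minus strand, which allows shares of up to 15.4%, 16.8% and 14.8% by the exact interval. Nuclear clusters of the same libraries were on the minus strand in 46.7%, 46.5% and 47.5%. The consensus list had 41 of 107 mitochondrial clusters on the minus strand (38.3%, interval 29.1 to 48.2), and the conservative list 20 of 60. They held 390 of 3824 consensus reads (10.2%).

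Minus-strand consensus clusters were shorter and held fewer reads than those on the plus strand, but not than nuclear ones. Their median was 7 reads and 53 bases, against 18.5 reads and 96 bases on the plus strand and 4 reads and 48 bases for nuclear consensus clusters. The largest had 58 reads, and the largest on the plus strand 540. Conversions per 100 edits, an edit being any difference from the genome, had a median of 33.3 on both strands. Of the 41, 34 had reads from 2 libraries and 7 from all 3, and 0 had conversions in all 3, whereas 45 of the 66 plus-strand clusters had reads from all 3 libraries and 18 had conversions in all 3. Of nuclear consensus clusters, 44.9% had reads and 13.2% had conversions from all 3. Of the 41, 7 carried the mapping tag UNIQ40_K1, which the lists do not define, and the other 34 the tag UNIQ40_K0. All 66 plus-strand clusters carried UNIQ40_K0, and of nuclear consensus clusters 75.2% did.

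**Figure D4:**
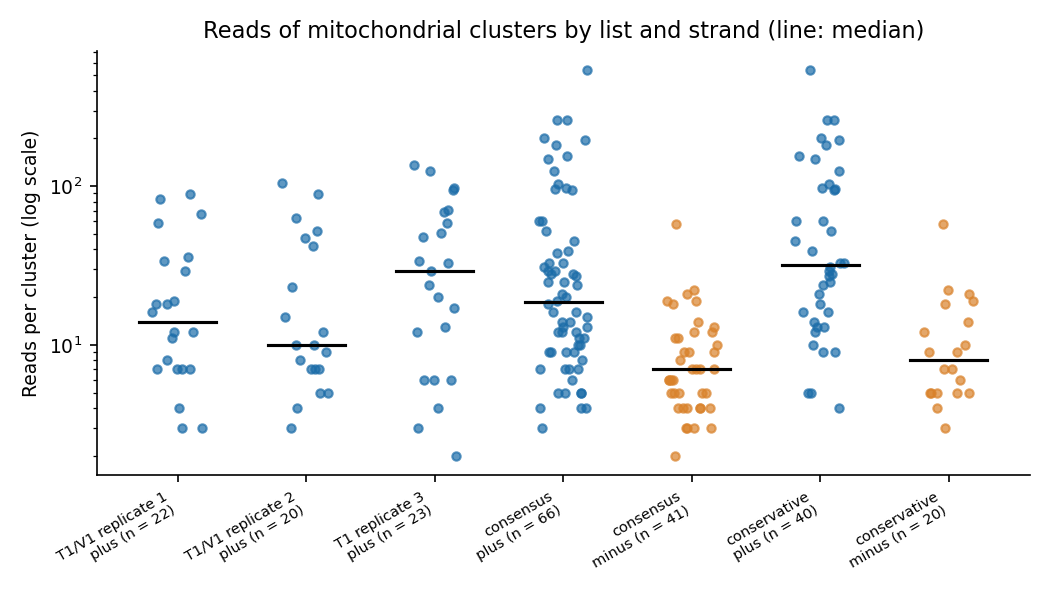
Reads per mitochondrial cluster on a log scale, by list and strand (points are clusters, black lines medians, blue plus strand, orange minus strand). The library lists have plus-strand clusters only, and in the consensus list the minus-strand clusters reach 58 reads with a median of 7, against a median of 18.5 on the plus strand.

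On the plus strand, 25 of the 66 consensus clusters overlapped a library cluster on the same strand, beside 20.9% of all consensus clusters. Among the 51 with at most 58 reads, the minus-strand maximum, 12 did (23.5%), and among the 18 under 10 reads 2 did (11.1%). The 20.9% has no such limit on reads. For the 41 minus-strand clusters the count with a library cluster is 0 by construction, since the libraries hold no minus-strand mitochondrial cluster. The other 41 of the 66 plus-strand consensus clusters had no library cluster. The largest was at positions 13603 to 13791, on no gene identifier, with 125 reads and 56 conversions and with reads and conversions from all 3 libraries. The cluster before it, at positions 13203 to 13437 over the end of MTCE.35 and MTCE.36, had 154 reads, while the libraries together had 1 cluster there, of 3 reads in replicate 1.

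Most minus-strand clusters faced a plus-strand cluster. In the consensus list 77 of 107 mitochondrial clusters (72.0%, interval 62.5 to 80.2) shared at least 1 base with a cluster on the other strand, 39 of the 41 on the minus strand and 38 of the 66 on the plus strand, beside 2.78% of all consensus clusters. Among nuclear clusters 54 of 4598 did (1.17%). Consensus clusters covered 63.4% of the 13789 bases between the first and the last mitochondrial cluster on the plus strand and 20.3% on the minus strand, and 76.5% of the bases covered on the minus strand faced bases covered on the plus strand, beside the 63.4% of all bases covered there. In the conservative list 32 of 60 clusters faced another, beside 1.83% of all conservative clusters and 14 of 2448 nuclear ones. There, 56.2% of the bases covered on the minus strand faced covered plus-strand bases, beside 46.9% of all bases covered on the plus strand.

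The 50 pairs were uneven. They were made of 38 plus-strand and 39 minus-strand clusters, so a cluster in several pairs counts in each. Reads and densities are those of whole clusters, not of the shared bases. An overlap of at least 10 bases left 43 pairs, and one of 50% of the shorter cluster 37. Among the 50, the plus-strand cluster had more reads in 41 pairs and the minus-strand cluster in 9. Per 100 bases the plus-strand cluster was denser in 39, and the median ratio of minus to plus density was 0.614. The minus-strand densities ran from 6.25 to 27.6 reads per 100 bases, with a median of 13.3, while those of the plus-strand clusters had a median of 23.4 and reached 131 at positions 3 to 115, where the facing minus-strand cluster had 14 reads and 2 conversions. The largest minus-strand cluster, 310 bases at positions 5607 to 5916 with 58 reads and 8 conversions, faced 3 plus-strand clusters on MTCE.21, MTCE.22 and MTCE.23, of 45, 4 and 28 reads. Of the minus-strand clusters, 31 faced a coding identifier and 14 a noncoding one, 7 of these a short noncoding identifier. Among coding identifiers, MTCE.23 had the most reads opposite it, 92 in 6 clusters, followed by MTCE.21 with 73 in 4 and MTCE.26 with 53 in 7. The cluster of 58 reads counts for MTCE.21, MTCE.22 and MTCE.23.

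**Figure D5:**
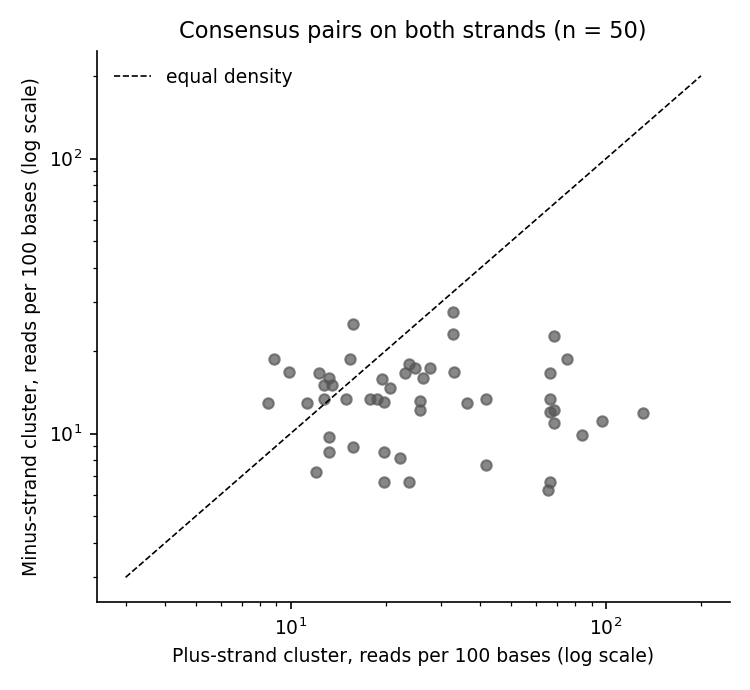
Reads per 100 bases of the minus-strand cluster against the plus-strand cluster in the 50 overlapping pairs of the consensus list, both on log scales; the dashed line marks equal density. In 39 pairs the plus-strand cluster is denser, and the minus-strand values stay near their median of 13.3 while the plus-strand values reach 131.

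The part of edits that were conversions differed from that in nuclear clusters in a way that depended on the library, the summary and the nuclear class. The median per cluster was 34.4 conversions per 100 edits in replicate 1, 31.3 in replicate 2, a mean of 32.9 ± 2.16 (SD, n = 2), and 21.7 in replicate 3. For nuclear clusters it was 44.4, 28.6 and 40, for nuclear tRNA clusters 25, 18.6 and 19.6, and for nuclear snoRNA clusters 21.1, 15.1 and 9.52. The mitochondrial median was thus above both of these noncoding classes in each library, and below that of all nuclear clusters in replicates 1 and 3. Nuclear miRNA clusters had medians of 26.7, 22.2 and 33.3, above the mitochondrial one in replicate 3. Summed over clusters, there were 26.4, 22.8 and 22.1 conversions per 100 edits in mitochondrial and 28.6, 18.1 and 24.1 in nuclear clusters. The sums were 27.6, 17.2 and 24.3 for nuclear tRNA clusters, above the mitochondrial ones in replicates 1 and 3. For nuclear snoRNA clusters they were 18.1, 15.3 and 8.05. Among consensus clusters the median was 33.3 for mitochondrial and 50 for nuclear ones, and the summed value 33.0 and 42.1. The consensus median was 24.7 for nuclear tRNA, 15.4 for nuclear snoRNA and 53.4 for nuclear miRNA clusters. Edits of all kinds were fewer per read in mitochondrial than in all nuclear clusters. They stood at 51.0, 86.4 and 81.9 per 100 reads in the libraries, against 86.8, 114.5 and 123.6. Nuclear tRNA clusters had 125.8, 164.3 and 182.5. Nuclear snoRNA clusters had 32.5, 96.6 and 85.2, fewer than the mitochondrial clusters in replicate 1 and somewhat more in replicates 2 and 3. Among the large sites, conversions were few on MTCE.28 and MTCE.29, where 2, 3 and 12 conversions came with 67, 89 and 124 reads. On MTCE.1 and MTCE.2 there were 45.3 per 100 edits in replicate 3 and 63.4 in the consensus list, above the medians there. Replicate 2 had 30.9 there, near its median, and the 2 clusters of replicate 1 had 25 and 41.2, on either side of its median.

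The conservative list kept 60 of the 107 mitochondrial consensus clusters (56.1%, interval 46.1 to 65.7), beside 53.3% of all consensus clusters, and so at about the overall share. It kept 40 of 66 on the plus strand and 20 of 41 on the minus strand. All consensus clusters on noncoding identifiers were kept on the plus strand, and these had 45 to 540 reads. The list kept 26 of the 52 clusters that lay on coding identifiers alone, which had a median of 13 reads. Of nuclear consensus clusters it kept 53.2%, and 77.6% of those with at least 10 reads. The 2 kinds of identifier were not compared at equal reads.

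Nuclear genes for proteins of the same complexes were also looked at. Of 36 nuclear genes for respiratory chain and ATP synthase subunits, 20 had an exonic consensus cluster, beside 10.2% of all nuclear protein-coding genes, and 10 had a conservative one, beside 5.95%. The ATP synthase genes atp-1 and atp-2, which encode its alpha and beta subunits, led with 130 consensus reads each, followed by asb-1, which encodes another ATP synthase subunit, with 40, and by the complex I gene nuo-5 with 26. In the libraries, 1 of the 36 genes was hit in each T1/V1 library, beside 0.486% and 0.461% of all nuclear protein-coding genes, and 8 in replicate 3, beside 2.95%, where atp-2 had 47 reads and atp-1 had 36. The abundance of these messages was not measured, and its part in the count was not tested. Of 11 matched genes for factors of mitochondrial DNA and RNA, 2 had a consensus cluster, tufm-1 with 18 reads, which encodes a mitochondrial translation elongation factor, and mrps-5 with 3, which encodes a mitochondrial ribosomal protein.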

How the data were processed

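The authors called the clusters with a program the files name parclip, at an estimated false discovery rate of 5% per the file attributes, and Bowtie2 2.1.0 is named in the submitters' processing notes. Genome build and annotation were not given in the sources used here. For every cluster the authors deposited raw counts of reads, edits and T-to-C conversions, and an entropy score, which no result uses. The number of reads equalled the number the lists call unique in all 9293 rows. Pooled values are the authors' own, with no SD.

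All mitochondrial rows were taken from each list. Coding identifiers were counted by the authors' gene annotation and noncoding ones by their identifier. Overlap meant at least 1 shared base. The overlap code was checked against a count base by base on simulated clusters. No test was planned, and shares carry exact intervals. Alternatives covered shares of reads or bases, a minimum of 10 reads, overlaps of 10 bases or 50% of the shorter cluster, the conservative list and left-out replicates. Nuclear gene names came from RefSeq (WBcel235) and a WormBase table. Every hit identifier was named, with clusters among the 10 largest of the consensus list, the 5 largest of a library, or in pairs on both strands. Start codon clusters, shared positions and clusters missing from a list were chosen after their values were seen. The share of main conversions within the last 3 bases was not among the planned results, and the alternatives held no other window. The members and gene lists were chosen with earlier results of these data known. Shares and intervals were computed with SciPy 1.17.1, numpy 2.4.6 and pandas 2.3.3 under Python 3.11.15, and figures with matplotlib 3.10.9.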

Additional observations from a re-analysis of the deposited data

How the results depend on the processing

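Of 44 alternatives for 17 results, 22 stayed within the replicate spread, counting interval or 1.5 times the count, and 22 moved further. The mean T1/V1 share of 5.41% became 5.92% by reads, 7.51% by bases and 7.29% at 10 or more reads. For T1 replicate 3 it became 3.84% by reads and 4.43% at 10 or more reads, so the T1 share stayed below the T1/V1 mean in each. The consensus share of 2.27% became 4.16%, 4.17% and 6.06%, and the conservative share of 2.39% became 4.29%, 5.13% and 5.54%, by reads, bases and at 10 or more reads. The minus-strand share became 10.2% by reads and 21.3% at 10 or more reads. Clusters facing the other strand numbered 32 of 60 in the conservative list, beside 1.83% of all its clusters. Conversions per 100 edits became 24.6 (sum) and 25.9 (10 or more reads) for the T1/V1 mean, and 28.6 (10 or more reads) and 35.4 (conservative list) for the consensus median. Recurrence at 10 or more reads became 92.9% and 100% from T1/V1 replicate 1 and 88.2% from T1 replicate 3 in T1/V1 replicate 1. The conservative share became 70.5%, against 77.6% of nuclear clusters. The cause of these changes was not tested. Leaving out a T1/V1 replicate gave shares of 5.31 to 5.51%, 31.3 to 34.4 conversions per 100 edits, and a minus-strand share of 0. No paired analysis was possible because the T1/V1 and T1 groups share no replicate number and no test was made. The 20 to 23 mitochondrial clusters per library limit precision.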

Other observations

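Reads in the pooled list were not always the sum of those in the libraries. Of 19 mitochondrial consensus clusters that enclosed library clusters, 4 had fewer reads than these library clusters together, as at positions 3244 to 3420, with 262 pooled reads against 330 summed. Among nuclear clusters 89 of 924 did. Among consensus clusters that enclosed clusters of all 3 libraries, 3 of 10 mitochondrial and 50 of 103 nuclear ones did. At the other end, the cluster at positions 13203 to 13437 had 154 pooled reads against 3 in the libraries, a ratio of 51.3. Details of the pooling were not given in the sources used here.

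The consensus cluster at positions 3 to 115 had 151 conversions, against 78 summed over the libraries, although its 148 reads were below the 184 summed there.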
